A study of Mus musculus with 48 samples.

Results

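The input transcriptome of young and aged mouse liver is described here. It is RNA set aside after the biotin-labelling reaction of a NAD-capture assay and before any enrichment. ONE-seq is an assay that pulls down RNA whose 5′ end carries nicotinamide adenine dinucleotide (NAD) in place of the usual cap. Per the study's methods, total RNA was incubated with the biotin reagent HEEB and the enzyme ADPRC and purified, and part was kept as input. All 8 input libraries used here share this step and are poly(A)-selected RNA-seq libraries. Of the 48 libraries of the series, 8 were used: 4 input libraries of young livers and 4 of aged livers, taken from C57BL/6 mice of 2 and 18 months. No treatment of the mice and no allele is named for any group. All mice were kept under a light-dark cycle with free access to chow, and their livers were frozen at once after dissection. The sex of the mice, the hour of collection, litters and dates are not given in the sources used here. Genes were members when they had no count in at most 25% of the 16 input and enrichment libraries of the age table, and 15636 of its 55335 genes met this, 13203 of them protein coding.

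Total counts were 9149931 to 10800709 in the young and 10560231 to 13196994 in the aged libraries, so that 3 counts stood for 0.227 to 0.328 CPM, the counts per 1000000 counts of a library. CPM here is relative to the library size after TMM scaling, which sets the bulk of genes level between libraries. The TMM factors did not overlap between the ages, 0.926 to 0.963 in young and 1.05 to 1.08 in aged libraries. The first principal component of the 8 libraries held 66.9% of the variance and separated the ages, while the second held 8.63% and set young replicate 1 apart from the other young libraries. The share of mitochondrial counts was 4.88% to 5.99% in young and 4.78% to 5.32% in aged libraries. Transcripts of the Y-linked gene Ddx3y, a helicase, were present in all 8 libraries at 34.3 to 65.9 CPM. Xist, the RNA that silences an X chromosome in female cells, was at 0 in 6 libraries and reached 4.58 CPM (53 counts) in aged replicate 4 and 0.178 CPM in aged replicate 3. The pancreatic enzyme genes Prss2, Cpa1 and Pnlip had 65, 64 and 71 counts in aged replicate 2 and 0 in the other aged libraries. They had 5, 3 and 17 counts in young replicate 3 and 0 in the other young libraries. None of these 4 genes, named after their values were seen, passed the zero filter, and their part in other results was not tested.

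Hepatocytes, which make up most of the liver's mass, store and make fat and glucose, break down amino acids, clear drugs and steroids, make bile acids, and secrete most proteins of blood plasma. Many of their genes differ between the sexes, because the pattern of growth hormone pulses differs between males and females, and many follow the hour of the day through the circadian clock and feeding. Macrophages called Kupffer cells, sinusoidal endothelial cells, stellate cells, bile duct cells and lymphocytes make up the rest.

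The ages differed in many genes of these functions. Genes of fat synthesis, lipid droplets, glucose use and interferon responses were among those higher in the aged livers, and male-biased genes, plasma proteins, complement and many cytochromes P450 were among those lower. By edgeR's quasi-likelihood test, with a Benjamini-Hochberg adjusted p under 0.05 over all 15636 genes as the call, 2352 genes rose in aged liver (15.0%) and 2284 fell (14.6%). Of these, 890 (5.69%) rose and 529 (3.38%) fell by at least 2-fold, and 304 and 201 did so by at least 4-fold. The median log2 fold change, always aged minus young, was 0.02 over all genes. Scaled by library size alone, that median was 0.20 and the calls split into 4034 higher and 1238 lower, that is 76.5% higher against 50.7% with TMM. The direction of small changes therefore depended on the scaling, and where it turned for a list described below, both counts are given. For each list of genes the members called in each direction are counted beside the background of 15.0% and 14.6%, and no test was made of a list as such. Among all 15636 genes, 2361 had every aged library above every young one, and 2239 had every aged library below. Most genes named below were chosen to have no overlap between the ages, so its absence adds no support for them.

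**Figure D1:**
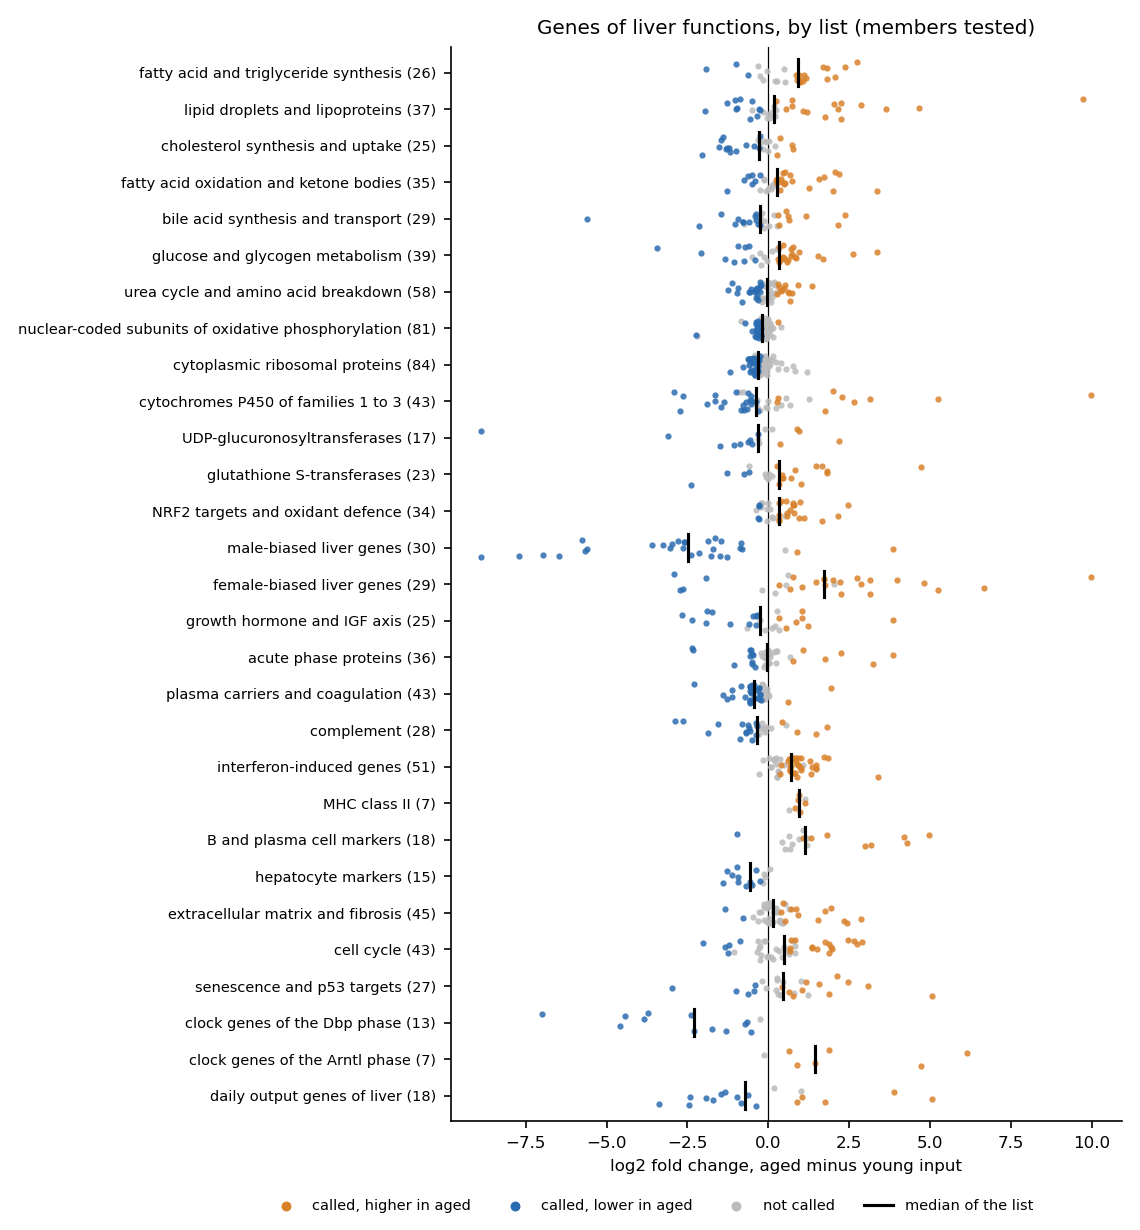
Each row is a list of genes of a liver function, with the number tested in brackets, and each point is a gene placed by its log2 fold change, aged minus young input (8 libraries). Orange points rose and blue points fell at an adjusted p under 0.05, grey points were not called, and the black bar is the median of the list. Fatty acid synthesis, interferon-induced and female-biased genes have medians of 0.91, 0.71 and 1.73, and male-biased genes and clock genes of the Dbp phase of -2.48 and -2.30.

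Among called protein-coding and lncRNA genes within the zero filter whose higher group averaged 50 counts or more per library and whose ages did not overlap, the largest increases were those of Cyp2b9, Cidea, Gm30692, Hao2, Npas2, Gm3776, Tmem28, A4gnt, Cyp2a22 and Gpnmb, and the largest decreases those of Ugt2b38, Hsd3b5, Tff3, Dbp, Selenbp2, Serpina1e, Adgrf1, Mup11, Mup7 and Slco1a1. Most are taken up with their groups below. Of the others, Adgrf1, an adhesion receptor, was at 13.9, 12.7, 14.9 and 18.4 CPM in the young and at 0.146, 0.217, 0.177 and 0.259 CPM in the aged libraries, a log2 fold change of -6.16 ± 0.26 (SE). Tff3, a secreted trefoil peptide, had 348 counts over the young and 2 over the aged libraries, a young to aged ratio of 234 (95% exact interval 64.4 to 1942, counting error only). The lincRNA Gm30692 had 246 counts over the aged and 1 over the young libraries, an aged to young ratio of 183 (32.5 to 7248). A4gnt, a glycosyltransferase of mucin-type sugars, was at 0 to 0.353 CPM in young and 5.72 to 11.4 CPM in aged libraries, and Tmem28 at 0 to 0.235 and 5.71 to 9.05 CPM. The zero filter left out genes silent in 1 age: 70 genes outside it had a mean of at least 10 counts in an age, and without the filter 43 of them were called higher and 18 lower.

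Genes that make fat rose more often than they fell. Of 26 genes of fatty acid and triglyceride synthesis tested, 15 rose and 3 fell, with a median log2 fold change of 0.91, and their summed level went from 12130 to 14060 CPM in young to 34720 to 41230 CPM in aged libraries. Scd1 (chr19:44394455-44407879, minus strand, GRCm38), the desaturase that makes oleic acid, was at 7853, 6665, 5479 and 5582 CPM in young and 25450, 24910, 29610 and 27860 CPM in aged libraries. The groups did not overlap, and the log2 fold change was 2.08 ± 0.12 (SE, n = 4 per age, edgeR adjusted p = 2.02e-09). Fasn (chr11:120805846-120824547, minus strand), the fatty acid synthase, was at 303, 291, 449 and 310 CPM in young and 1661, 1603, 2193 and 1561 CPM in aged libraries, 2.37 ± 0.14 on the log2 scale (edgeR adjusted p = 5.13e-09). Every aged library again lay above every young library. Elovl5, which lengthens polyunsaturated fatty acids, rose by 1.81 ± 0.12, and Pnpla3, a lipid droplet enzyme, by 2.74 ± 0.39. Srebf1, the transcription factor that drives this pathway, was at 384, 448, 349 and 260 CPM in young and 601, 674, 680 and 645 CPM in aged libraries, a smaller rise of 0.85 ± 0.13 without overlap.

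Among lipid droplet and lipoprotein genes the droplet proteins stood out. Of 37 tested, 15 rose and 11 fell, so members of the list went both ways. Cidea, which fuses lipid droplets and is best known from brown fat, was at 0.588, 0.110, 0 and 0 CPM in young and 136, 112, 154 and 180 CPM in aged libraries. The young libraries held 5, 1, 0 and 0 counts and the aged ones 1856, 1549, 1735 and 2077, and the log2 fold change was 9.72 ± 0.32 (edgeR adjusted p = 1.34e-11). Its relative Cidec was at 4.12, 4.72, 7.44 and 5.49 CPM in young and 71.0, 44.8, 68.2 and 90.6 CPM in aged libraries (3.64 ± 0.21). Plin4, a droplet coat protein, averaged 1.17 ± 0.588 CPM in young and 30.2 ± 7.8 CPM in aged libraries (SD, n = 4 per age), a log2 fold change of 4.67 ± 0.27. Plin2, the main droplet coat of hepatocytes, rose from 412 to 525 CPM to 746 to 836 CPM (0.72 ± 0.09). Cd36, a fatty acid transporter, was at 43.0, 28.2, 39.7 and 26.2 CPM in young and 284, 216, 249 and 253 CPM in aged libraries (2.87 ± 0.15). None of these genes overlapped between the ages. In the other direction Apoa1, the main protein of high-density lipoprotein, was at 14380, 14800, 15920 and 14530 CPM in young and 6695, 6529, 5247 and 5899 CPM in aged libraries (-1.29 ± 0.09, edgeR adjusted p = 3e-08).

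Cholesterol genes fell more often than they rose. Of 25 genes of cholesterol synthesis and uptake, 13 fell and 4 rose, with a median of -0.28, and 9 fell by at least 2-fold. Sqle, the squalene epoxidase, was at 64.7, 64.3, 77.6 and 72.5 CPM in young and 21.2, 20.9, 11.4 and 13.1 CPM in aged libraries, a log2 fold change of -2.06 ± 0.16 with no overlap. Msmo1 (-1.52 ± 0.16), Idi1 (-1.45 ± 0.15) and the cholesterol transporter Stard4 (-1.39 ± 0.09) also fell without overlap. With library size alone 11 members fell and 4 rose. The synthesis of cholesterol in mouse liver follows the hour of feeding, and the hour of collection cannot be told apart from age here.

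**Figure D2:**
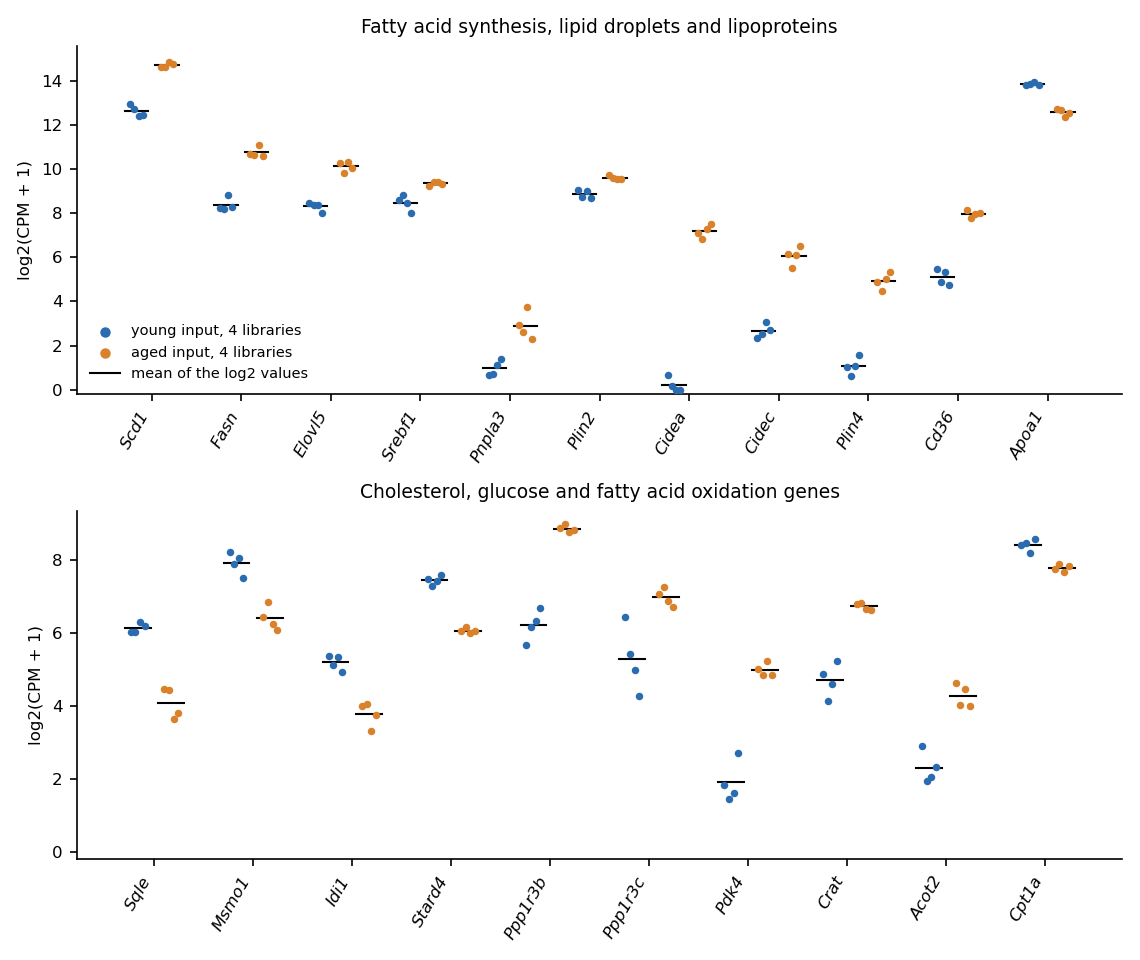
Levels of lipid and glucose genes in each library, as log2(CPM + 1), with 4 young (blue) and 4 aged (orange) libraries per gene and a bar at the mean of the log2 values. Scd1, Fasn, Cidea, Cidec, Plin4, Cd36 and Ppp1r3b lie higher in every aged library than in any young one, and Apoa1, Sqle, Msmo1, Idi1 and Stard4 lie lower.

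Genes of fatty acid oxidation and ketone bodies were higher more often than lower, with 19 of 35 rising, 7 falling and a median of 0.26. Pdk4, a kinase that keeps pyruvate out of the citric acid cycle, was at 2.59, 1.76, 2.08 and 5.59 CPM in young and 31.4, 27.8, 36.7 and 27.8 CPM in aged libraries (3.35 ± 0.24). Acot2, a mitochondrial acyl-CoA thioesterase, rose by 2.19 ± 0.23, and Crat, which passes acyl groups to carnitine, by 2.00 ± 0.16. Cyp4a14, a fatty acid hydroxylase, rose by 1.73 ± 0.29. Cpt1a, which carries fatty acids into mitochondria, fell, from 290 to 382 CPM to 206 to 237 CPM (-0.62 ± 0.09). With library size alone 22 members were higher and 5 lower.

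Bile acid genes divided as well: of 29, 13 fell and 8 rose, and with library size alone 8 fell and 9 rose. Cyp7a1, the rate-limiting enzyme of the classical pathway, was at 39.6, 39.9, 80.1 and 106 CPM in young and 60.4, 45.5, 68.1 and 58.0 CPM in aged libraries. The ages overlapped (-0.20 ± 0.24, edgeR adjusted p = 0.586), and without young replicate 4 the sign turned, to 0.11. Cyp7b1, the enzyme of the alternative pathway, was at 197 to 360 CPM in young and 43.3 to 84.3 CPM in aged libraries (-2.14 ± 0.19). Cyp39a1, another oxysterol hydroxylase, fell by 1.46 on the log2 scale. The bile acid and anion transporter Slco1a1 was at 796, 486, 577 and 633 CPM in young and 2.71, 35.0, 3.55 and 9.51 CPM in aged libraries (-5.59 ± 0.55), aged replicate 2 being the highest of the aged livers.

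Genes of glucose and glycogen metabolism rose more often than they fell. Of 39 genes of glucose and glycogen metabolism, 21 rose and 9 fell, with a median of 0.35. By at least 2-fold 4 rose and 4 fell, and the log2 fold changes ran from -3.43 to 3.35. Their summed level was 12070 to 14520 CPM in young and 15860 to 17290 CPM in aged libraries. Ppp1r3b, which targets a phosphatase to glycogen and activates glycogen synthase, was at 50.6, 70.8, 79.4 and 103 CPM in young and 473, 504, 433 and 453 CPM in aged libraries (2.61 ± 0.16). The ages did not overlap. Ppp1r3c, a second such subunit, rose by 1.52 ± 0.30. On the side of glucose output, Pck1 was at 926, 1911, 1612 and 2161 CPM in young and 297, 747, 847 and 1311 CPM in aged libraries, which overlap. Its log2 fold change of -1.05 ± 0.32 had an edgeR adjusted p of 0.0201, and the call was lost without young replicate 2 (0.0545), without young replicate 4 (0.0597), by DESeq2 (0.0575) and with library size alone (0.0508). G6pc, the glucose-6-phosphatase, ranged from 86.0 to 487 CPM among the young livers alone and was not called (0.47 ± 0.40).

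Drug-metabolising genes shifted between families. Of 43 cytochromes P450 of families 1 to 3, 21 fell and 9 rose, and by at least 2-fold 8 fell and 7 rose. The summed level was 24680 to 26990 CPM in young and 15520 to 19690 CPM in aged libraries. The members that rose include Cyp2b9 (9.99 ± 0.32), Cyp2a22 (5.25 ± 0.32) and Cyp2a4 (3.14 ± 0.31), which are taken up below. Cyp1a2, which oxidises caffeine and aromatic amines, was at 1149, 1587, 1159 and 1295 CPM in young and 290, 416, 345 and 344 CPM in aged libraries (-1.90 ± 0.12, edgeR adjusted p = 9.85e-09). Cyp2e1, the ethanol-oxidising form, was at 6928 to 7589 CPM in young and 3927 to 5513 CPM in aged libraries (-0.69 ± 0.10). Cyp3a11, the main steroid and drug hydroxylase of this family, was at 2218 to 2749 and 1715 to 1843 CPM (-0.50 ± 0.08). Cyp1a2, Cyp2e1 and Cyp3a11 each lay lower in every aged library. Of 17 UDP-glucuronosyltransferases, 9 fell and 4 rose, and only 2 rose when young replicate 2, young replicate 4 or aged replicate 2 was left out. Ugt2b38 was at 31.4 to 81.3 CPM in young and 0 to 0.346 CPM in aged libraries, Ugt2b1 fell by 1.48 ± 0.10 and Ugt2b5 by 1.07 ± 0.10 on the log2 scale. Of 7 sulfotransferases tested, 3 fell and 1 rose, and without the zero filter, when more members are tested, 6 were called higher. Sult2a8 fell, from 585 to 872 CPM to 172 to 333 CPM, and Sult2a7 rose, from 0.198 to 1.76 CPM to 5.65 to 9.95 CPM. Outside the filter, and named after their values were seen, Sult1e1 had 0, 0, 3 and 0 counts in young and 40, 18, 53 and 35 counts in aged libraries, and Sult2a2 had 0 in each young and 60, 3, 42 and 2 counts in aged libraries.

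Glutathione transferases and oxidant defence genes rose more often than they fell. Of 23 glutathione S-transferases, 13 rose and 4 fell (15 and 2 with library size alone). Gstm1 was at 1497, 1543, 1306 and 1460 CPM in young and 2694, 2328, 2691 and 2519 CPM in aged libraries (0.82 ± 0.08). Gsta1 rose from 0.470 to 0.892 CPM to 14.4 to 23.7 CPM, and its near copy Gm3776 from 0 to 0.235 CPM to 6.05 to 7.84 CPM. Reads that fit both copies could be lost or misplaced. Gstp1, a pi-class transferase that is far higher in male than in female mouse liver, moved the other way, at 1561, 1918, 2041 and 2180 CPM in young and 372, 379, 340 and 375 CPM in aged libraries (-2.39 ± 0.10). Of 34 targets of NRF2, the factor of the oxidant response, and other defence genes, 19 rose and 4 fell. The count of lower members was 2 without aged replicate 3, 7 by DESeq2 and 0 with library size alone, and the summed level of the list overlapped, 11720 to 13050 CPM in young and 11850 to 12160 CPM in aged libraries. Nqo1, a quinone reductase, was at 9.29, 7.25, 8.62 and 4.86 CPM in young and 26.4, 21.5, 24.5 and 21.7 CPM in aged libraries (1.65 ± 0.16), Cbr3, a carbonyl reductase, rose by 2.46 ± 0.32, and Pgd, of the pentose phosphate pathway, by 1.09 ± 0.12. Mt1, a metallothionein that binds zinc, was at 12.3 to 23.6 and 8.40 to 20.9 CPM (-0.19 ± 0.23, not called).

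Genes that are higher in male liver fell and most genes that are higher in female liver rose. Of 30 male-biased genes, 27 fell and 2 rose, with a median of -2.48, and their summed level was 43320 to 53510 CPM in young and 4953 to 8062 CPM in aged libraries. Hsd3b5 (chr3:98618634-98630252, minus strand), a steroid reductase of adult male liver, was at 476, 416, 495 and 498 CPM in young and 0.659, 6.08, 0.799 and 1.04 CPM in aged libraries (-7.71 ± 0.40, edgeR adjusted p = 9.71e-10). Serpina1e (chr12:103946931-103958975, minus strand), an α1-antitrypsin gene, was at 11140, 16000, 19520 and 19490 CPM in young and 108, 315, 127 and 191 CPM in aged libraries (-6.48 ± 0.32). Selenbp2, a selenium-binding protein, was at 693, 1356, 1369 and 1324 CPM in young and 7.11, 16.4, 5.86 and 8.04 CPM in aged libraries (-6.97 ± 0.31). None of the 3 overlapped between the ages, and young replicate 1 had the lowest young value of Serpina1e and Selenbp2. Mup7 (chr4:60066469-60070475, minus strand), a major urinary protein that carries pheromones, was at 3973, 5102, 3755 and 4792 CPM in young and 17.9, 269, 31.0 and 30.2 CPM in aged libraries (-5.66 ± 0.70), and Mup11 was at 154 to 404 and 0.879 to 13.5 CPM. Aged replicate 2 was the highest aged library for Mup7, Mup11, Hsd3b5, Serpina1e, Selenbp2 and Slco1a1. Mup and Serpina1 genes are near-identical copies, so reads that fit several copies could be lost or misplaced and the value of a single copy is uncertain. Of the 2 that rose, Elovl3, named after its values were seen, is also a daily output gene.

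Of 29 female-biased genes tested, 20 rose and 4 fell, with a median of 1.73. Cyp2b9 (chr7:26173411-26210661, plus strand), a cytochrome P450 of female liver, was at 0.353, 0, 0.297 and 0.207 CPM in young and 293, 187, 275 and 161 CPM in aged libraries, a log2 fold change of 9.99 ± 0.32 (edgeR adjusted p = 1.29e-11). Cyp2b13, a close relative named after its values were seen, did not pass the zero filter, with 0 counts in each young library and 866, 375, 929 and 223 counts in the aged ones. Hao2, a hydroxyacid oxidase, was at 0 to 0.198 CPM in young and 15.97, 7.39, 17.3 and 7.96 CPM in aged libraries. Cyp2a22 was at 0.207 to 1.76 CPM in young and 48.4, 27.4, 55.7 and 33.2 CPM in aged libraries. Cyp2a4, a testosterone hydroxylase that is similar in sequence to its copies, was at 1.29 to 1.98 and 19.6, 9.20, 21.7 and 10.3 CPM. The anion transporter Slc22a27 was at 0.220 to 1.09 CPM in young and 26.01, 12.3, 22.01 and 12.2 CPM in aged libraries. In each of these 6 genes aged replicates 1 and 3 lay above aged replicates 2 and 4, and every aged library above every young one. The 4 female-biased genes that fell included Cyp2c40, which was at 16.5, 31.7, 17.2 and 29.8 CPM in young and 4.39, 1.38, 8.25 and 0.605 CPM in aged libraries (-2.72 ± 0.44).

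**Figure D3:**
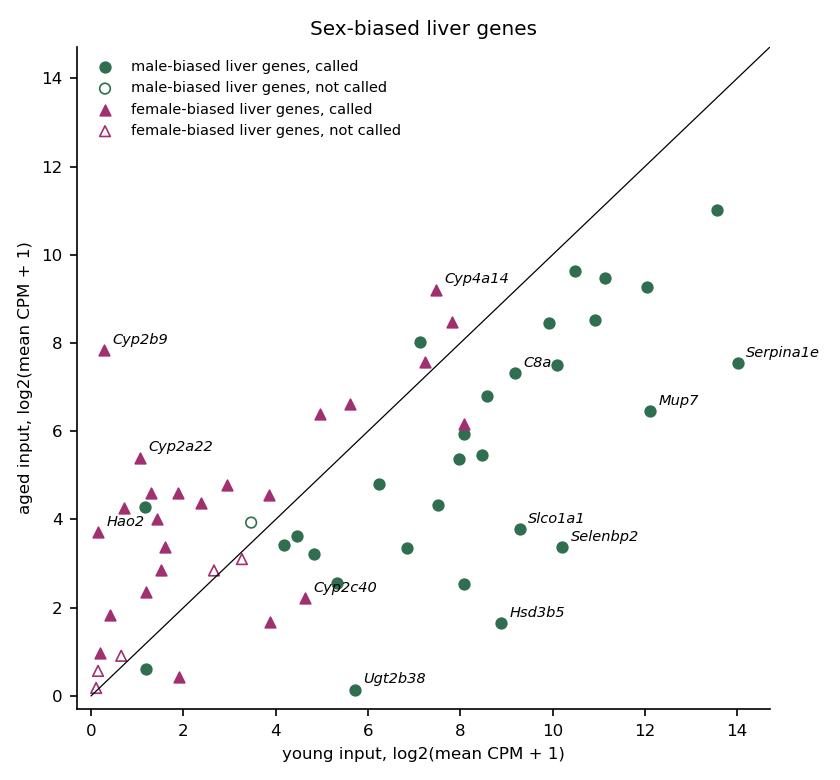
Mean level of each sex-biased liver gene in the 4 aged input libraries against the 4 young ones, both as log2(mean CPM + 1), with equal levels on the line. Male-biased genes (green circles, 30) lie below the line apart from 3, most female-biased genes (purple triangles, 29) above it, and open symbols were not called.

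The growth hormone and insulin-like growth factor axis, on which this sex bias rests, had 7 of 25 genes higher and 11 lower (8 and 8 with library size alone). Igf1, the circulating growth factor of liver, was at 642, 536, 547 and 590 CPM in young and 399, 397, 351 and 384 CPM in aged libraries (-0.60 ± 0.08), and Igfbp2, a binding protein, at 844, 803, 779 and 892 and at 99.8, 188, 105 and 130 CPM (-2.67 ± 0.16). Neither overlapped. Ghr, the growth hormone receptor, was at 414 to 497 and 314 to 401 CPM (-0.37 ± 0.09), a call that was lost with library size alone. Stat5a, a signal transducer of the receptor, rose by 1.23 ± 0.16, and Socs3, a feedback inhibitor, fell by 2.37 on the log2 scale. Among 10 genes tested that decline after birth, Afp, the fetal albumin relative, was at 0.941 to 1.76 and 1.52 to 2.75 CPM (not called). H19 was at 4.82, 2.85, 3.07 and 15.9 CPM in young and 0.869 to 3.99 CPM in aged libraries. Its adjusted p of 0.0388 rose to 0.318 without young replicate 4, to 0.0989 without aged replicate 1 and to 0.0986 without aged replicate 2.

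Plasma proteins made by hepatocytes were lower in the aged livers. Of 43 carriers and coagulation factors, 30 fell and 2 rose, with a median of -0.45, and 23 still fell with library size alone. Alb, albumin, was at 101800, 79890, 79720 and 78040 CPM in young and 62730, 60790, 56240 and 50620 CPM in aged libraries (-0.56 ± 0.10, edgeR adjusted p = 0.000713). Ahsg, fetuin-A, was at 9632, 10780, 11310 and 10080 and at 3768, 4386, 3901 and 3790 CPM (-1.40 ± 0.09). F11, coagulation factor XI, was at 65.4 to 87.6 and 13.1 to 17.8 CPM (-2.30 ± 0.12), and Serpina1c and Serpina1a fell by 1.27 and 1.11 on the log2 scale. Against this direction Serpina7, the thyroxine-binding globulin, was at 65.8, 23.8, 30.5 and 24.5 CPM in young and 146, 134, 104 and 171 CPM in aged libraries (1.95 ± 0.25).

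Of 28 complement genes, 15 fell and 4 rose (11 and 6 with library size alone). The decreases included the terminal components that form the membrane pore. C8b was at 459, 527, 598 and 597 CPM in young and 58.7, 99.2, 61.1 and 78.3 CPM in aged libraries (-2.87 ± 0.15), C6 at 204 to 304 and 29.0 to 54.2 CPM (-2.65 ± 0.18), and C8a at 515 to 614 and 130 to 184 CPM (-1.87 ± 0.12). C6 and C8a are also on the list of male-biased genes. C3, the central component, was at 4855, 4566, 3444 and 4244 CPM in young and 3436, 4005, 4132 and 4286 CPM in aged libraries, which overlap (-0.11 ± 0.11, not called, and 0.08 with library size alone). C4a rose by 1.82 ± 0.12, but is similar in sequence to C4b, so its value is uncertain. Acute phase proteins, the plasma proteins of inflammation, had 6 of 36 higher and 11 lower, and 12 and 9 with library size alone. Serpina3k, a kallikrein inhibitor, was at 12650, 16370, 16660 and 14420 and at 2356, 4117, 2423 and 3031 CPM (-2.33 ± 0.16). Lcn2, lipocalin-2, rose from 1.06 to 4.83 CPM to 16.6 to 35.2 CPM (3.24 ± 0.30), and Orm3, an orosomucoid, from 0.595 to 2.20 CPM to 11.9 to 17.02 CPM. Saa1, serum amyloid A, was at 32.2, 116, 83.5 and 41.7 and at 134, 74.2, 118 and 108 CPM (0.67 ± 0.29, not called, but called at 1.05 without young replicate 2).

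Genes of amino acid breakdown went both ways. Of 58 genes of the urea cycle and amino acid breakdown, 20 fell and 13 rose, which turned to 8 and 21 with library size alone. Cps1, the first enzyme of the urea cycle, was at 3173, 4078, 3521 and 3488 CPM in young and 1531, 1945, 1821 and 2041 CPM in aged libraries (-0.96 ± 0.10). Hao1, which turns glycolate into glyoxylate, fell by 1.24 ± 0.09, and Tdo2, which opens the ring of tryptophan, by 1.12 ± 0.10 on the log2 scale. Gldc, of glycine cleavage, rose from 78.3 to 123.1 CPM to 241 to 249 CPM (1.34 ± 0.12). Asns, the asparagine synthetase, was at 4.47, 7.47, 5.85 and 5.69 and at 0.220, 0.217, 0.621 and 0.692 CPM (-3.77 ± 0.34), while Atf5 and Ddit4, which answer the same stress factor ATF4, rose by 1.58 ± 0.08 and 1.67 ± 0.23.

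Of 36 genes of NAD metabolism, sirtuins and cap hydrolases, 8 fell and 3 rose. With library size alone the balance turned, to 4 lower and 7 higher. The count of lower members was 5 without aged replicate 1, 4 without aged replicate 3 and 5 without aged replicate 4. Nampt, the rate-limiting enzyme of NAD salvage and a daily output gene, was at 70.8, 52.2, 74.6 and 84.6 and at 57.5, 54.1, 47.9 and 56.4 CPM. The groups overlapped, and its call (-0.39 ± 0.12, edgeR adjusted p = 0.0262) was lost without young replicate 3 or 4, without aged replicate 2 or 3 and with library size alone, with adjusted p-values of 0.0641, 0.0849, 0.0501 and 0.0864 for the 4 libraries. Nadk, the NAD kinase, rose from 220 to 236 CPM to 314 to 350 CPM (0.55 ± 0.08). Aox3, an aldehyde oxidase, fell from 694 to 793 CPM to 259 to 391 CPM (-1.19 ± 0.12), and its relative Aox1 rose by 0.59 ± 0.10. Nnmt, which methylates nicotinamide, was at 36.1 to 102 CPM in young and 73.1 to 100 CPM in aged libraries. It was not called (0.34 ± 0.24), but was called at 0.63 without young replicate 2. Nnt, the mitochondrial transhydrogenase that C57BL/6J mice lack, was at 0.110 to 0.823 and 0.605 to 1.09 CPM.

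Nuclear genes for oxidative phosphorylation and ribosomal protein genes were slightly lower. Of 81 nuclear-coded subunits, 27 fell and 1 rose with a median of -0.18, but 17 fell without young replicate 3, 14 without aged replicate 4, and with library size alone 3 fell and 6 rose. Atp5g1, of the ATP synthase, was at 61.4 to 71.1 and 44.4 to 53.2 CPM (-0.51 ± 0.09). Of 84 cytoplasmic ribosomal protein genes 38 fell and 0 rose with a median of -0.31, and 17 fell with library size alone. Rpl35a was at 54.6, 50.2, 59.9 and 58.9 and at 34.6, 31.6, 33.0 and 31.9 CPM (-0.77 ± 0.09), and Rps4x at 210 to 253 and 143 to 160 CPM (-0.61 ± 0.09). Of 31 iron and heme genes, 11 rose and 3 fell (17 and 3 with library size alone). Fth1, the ferritin heavy chain, was at 1554, 1729, 1579 and 1558 and at 2712, 2322, 2520 and 2397 CPM (0.63 ± 0.08), and Hfe2, hemojuvelin, rose by 0.86 ± 0.13. Hamp, the iron hormone hepcidin, was at 319 to 551 and 373 to 504 CPM (0.04 ± 0.15, not called).

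Interferon-induced genes were called in 1 direction. Of 51 tested, 33 rose and 0 fell, with a median of 0.71. None fell by DESeq2 or under either other scaling, and 1 fell without the zero filter. Oasl1, an antiviral sensor, was at 15.1, 18.4, 18.2 and 14.7 CPM in young and 50.5, 84.1, 53.4 and 51.1 CPM in aged libraries (1.85 ± 0.16, edgeR adjusted p = 2.88e-07). Rsad2, viperin, was at 8.35, 10.2, 10.9 and 7.55 and at 27.0, 43.4, 20.9 and 30.7 CPM (1.72 ± 0.19), and Cmpk2, its neighbour on chromosome 12, at 7.29 to 8.46 and 17.1 to 28.02 CPM (1.47 ± 0.15). Irf7, the factor that amplifies the response, was at 60.6, 84.9, 79.2 and 59.7 and at 137, 191, 116 and 126 CPM (1.00 ± 0.15). Every aged library lay above every young one in these genes, and aged replicate 2 was the highest in all 4. Ifi27l2b rose from 1.45 to 4.56 CPM to 30.8 to 41.1 CPM. Isg15, a ubiquitin-like modifier, was at 16.6, 24.9, 23.2 and 12.9 and at 22.3, 32.4, 20.4 and 23.1 CPM, which overlap (0.34 ± 0.18, edgeR adjusted p = 0.185).

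Promoters of these genes often hold GAAANNGAA, a part of the element bound by interferon-activated factors. Of 34 listed genes with a promoter window in RefSeq (GRCm38.p6, from 250 bases before to 50 after the start site), 23 held it on either strand (67.6%), against 9.76% of all 27025 genes with a window. A match is a sequence of letters and was not tested as a binding site. The stretches below, all before the start site, show the match in capitals in Ifit1 (named after its values were seen) and Rsad2, which rose, and in Isg15, which was not called. Further matches in the Ifit1 stretch are in lower case, and further matches in the Isg15 stretch share letters with the capitals. Ifit1 lies at chr19:34640779-34640839 (plus strand), Rsad2 at chr12:26456537-26456597 (minus) and Isg15 at chr4:156200856-156200916 (minus).
Ifit1: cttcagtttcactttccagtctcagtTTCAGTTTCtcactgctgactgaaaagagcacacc
Rsad2: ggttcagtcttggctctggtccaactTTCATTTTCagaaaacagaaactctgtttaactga
Isg15: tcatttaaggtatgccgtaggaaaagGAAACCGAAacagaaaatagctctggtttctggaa

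Antigen presentation and immune cell markers moved unevenly. Of 7 MHC class II genes tested, 5 rose. Cd74, the invariant chain, was at 63.0, 62.8, 110 and 54.6 and at 176, 111, 159 and 124 CPM (0.97 ± 0.19), and H2-Eb1 at 19.1, 19.2, 39.7 and 14.4 and at 60.2, 40.0, 59.6 and 45.5 CPM (1.15 ± 0.23). H2-Aa was not called (0.64 ± 0.23), but was called at 1.02 without young replicate 3 and at 0.74 without aged replicate 2. For class I, B2m, the shared light chain, was at 1669 to 2066 and 1720 to 1951 CPM (-0.01 ± 0.09), and H2-D1 rose from 650 to 824 CPM to 1054 to 1230 CPM (0.64 ± 0.09).

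Markers of B and plasma cells included immunoglobulin genes that rose. Of 18 tested, 8 rose and 1 fell, which was 0 with library size alone and without any 1 of young replicates 1, 2 and 3 and aged replicates 2, 3 and 4. The summed level of the list was 18.9 to 29.8 CPM in young and 145 to 209 CPM in aged libraries. Ighm, the heavy chain of IgM, was at 7.06, 11.6, 12.6 and 9.004 and at 97.0, 105, 71.6 and 90.1 CPM (3.17 ± 0.16, edgeR adjusted p = 7.17e-10). Igkc, the κ light chain, was at 2.23, 3.29, 3.07 and 2.17 and at 59.0, 51.2, 31.1 and 59.1 CPM (4.21 ± 0.22), Jchain, which joins IgA and IgM, at 0.198 to 0.769 and 9.59 to 17.2 CPM (4.96 ± 0.33), and Igha at 0 to 0.397 and 3.82 to 8.73 CPM. Ighg2b, named after its values were seen, did not pass the zero filter, with 0 counts in the young and 40, 46, 40 and 58 in the aged libraries. Cd79a, of the B cell receptor, was at 0.621 to 1.43 and 1.33 to 3.69 CPM, and its adjusted p of 0.0427 became 0.0607 to 0.191 when young replicate 1, 3 or 4 or aged replicate 1 or 2 was left out. In bulk RNA, more cells of a type and more RNA per cell cannot be told apart, and the same holds for fewer cells and less RNA.

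Markers of the other cell types are given by their calls and summed levels. Among those of monocytes, dendritic cells and lipid-associated macrophages, 9 of 19 rose and 0 fell, but the summed level overlapped, 144 to 202 CPM in young and 156 to 311 CPM in aged libraries. Gpnmb, a glycoprotein of lipid-laden macrophages, was at 0.118, 0, 0.397 and 0 and at 7.18, 1.01, 5.68 and 7.18 CPM (5.18 ± 0.75), and Mmp12, a macrophage elastase, at 0.220 to 0.595 and 8.94, 2.32, 5.95 and 5.36 CPM (3.77 ± 0.46). Aged replicate 2 had the lowest aged value of both. Of 16 Kupffer cell markers 1 rose and 2 fell, and 3 rose and 1 fell with library size alone, while 4 rose without young replicate 3. These markers summed to 749 to 1160 CPM in young and 779 to 1105 CPM in aged libraries, and Clec4f, their lectin, was at 116 to 188 and 105 to 145 CPM (-0.26 ± 0.14, not called). T and NK cell markers had 3 of 24 higher and 0 lower, or 1 and 1 without aged replicate 1. They summed to 10.1 to 18.6 and 13.7 to 22.2 CPM, and Cd8a reached at most 1.16 CPM in any library. Neutrophil markers had 1 of 5 tested higher and 0 lower. The number higher was 0 without young replicate 1 or 4 or aged replicate 1 or 3, 2 without young replicate 2 and 3 without aged replicate 2. Their sum was 2.235 to 3.19 CPM in young and 4.27 to 10.3 CPM in aged libraries, without overlap and at low levels, with Ly6g at 0 in all 8. S100a9 was at 0.198 to 0.988 and 0.507 to 2.12 CPM (1.32 ± 0.53, not called, but called without young replicate 2 at 1.83 and without aged replicate 2 at 1.599).

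Of 24 sinusoidal endothelial markers 1 rose and 4 fell, a balance that turned with library size alone, to 7 higher and 1 lower, and without young replicate 3, to 3 higher and 2 lower. Without young replicate 4, 3 rose. These markers summed to 621 to 748 CPM in young and 643 to 714 CPM in aged libraries, stellate cell markers to 411 to 503 and 454 to 531 CPM, and bile duct markers to 91.6 to 99.0 and 88.8 to 120 CPM, all with overlap. Stellate cell markers had 5 of 18 higher and 2 lower, with 3 higher without young replicate 4 or aged replicate 3. Bile duct markers had 1 of 11 higher and 3 lower, with 1 lower without young replicate 1 or with library size alone. Stab2, a scavenger receptor of sinusoids, was at 26.9 to 37.4 and 32.0 to 41.2 CPM (not called, but called at 0.35 without young replicate 4). Lrat, which stores vitamin A in stellate cells, rose by 0.71 ± 0.17 with overlapping groups. Of the bile duct keratin and progenitor genes, Krt19 fell from 2.38 to 4.76 CPM to 0.806 to 1.598 CPM (-1.68 ± 0.30), and Sox9 rose from 2.28 to 3.95 CPM to 9.77 to 11.9 CPM (1.83 ± 0.19). Of 15 hepatocyte markers, 11 fell and 0 rose, and their summed level was 132000 to 155100 CPM in young and 81660 to 93910 CPM in aged libraries. Alb holds the largest part of this sum, and some members, such as Ahsg and Cps1, were already counted in lists above. Red cell genes divided the aged livers: Hbb-bs, a β-globin, was at 49.0, 17.9, 29.6 and 23.9 CPM in young and 130, 40.5, 43.5 and 134 CPM in aged libraries, so that aged replicates 1 and 4 stood above the rest. The part of blood RNA in any other result was not tested.

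**Figure D4:**
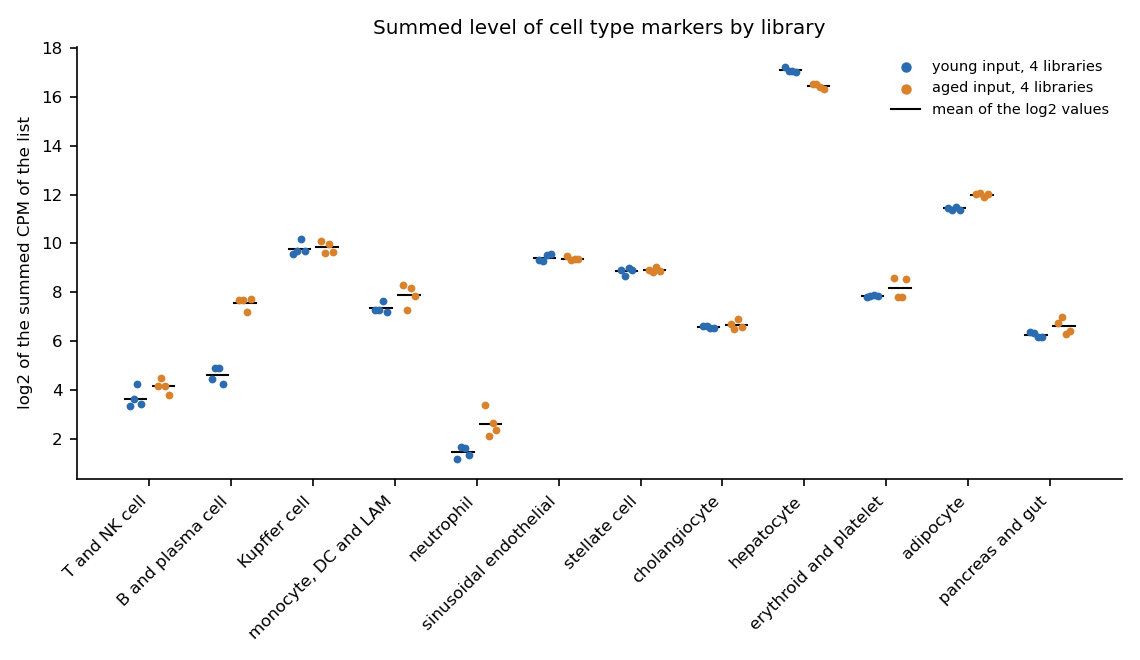
Summed CPM of the markers of each cell type in each library, on a log2 axis, for 4 young (blue) and 4 aged (orange) input libraries, with a bar at the mean of the log2 values (DC, dendritic cell; LAM, lipid-associated macrophage). B and plasma cell markers lie at 18.9 to 29.8 CPM in young and 145 to 209 CPM in aged libraries without overlap, hepatocyte markers are lower in every aged library, and those of Kupffer, endothelial and stellate cells overlap. The hepatocyte list is carried by Alb, at 78040 to 101800 CPM in young and 50620 to 62730 CPM in aged libraries. The adipocyte list is carried by Car3, which hepatocytes also make.

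Among matrix genes the main collagens differed. Of 45 extracellular matrix and fibrosis genes, 12 rose and 2 fell (1 without young replicate 3) with a median of 0.15, and 20 rose with library size alone. Col1a1, of fibrillar collagen, was at 3.88, 6.70, 10.5 and 9.004 CPM in young and 11.3 to 16.1 CPM in aged libraries (0.87 ± 0.22), whereas Col3a1 was at 28.5 to 65.2 and 39.8 to 53.3 CPM (-0.13 ± 0.18, not called). Anxa2 rose from 12.5 to 18.8 CPM to 44.8 to 97.5 CPM (2.33 ± 0.20), Lgals1, galectin-1, by 2.86 ± 0.14, and Col5a3 by 1.93 ± 0.12.

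Of 43 cell cycle genes 16 rose and 5 fell, but at low levels: 10 rose without young replicate 1 or without aged replicate 3. Mki67, the proliferation marker, was at 0.198 to 0.353 and 0.440 to 1.598 CPM (1.96 ± 0.55). Tk1, thymidine kinase, fell from 25.2 to 38.5 CPM to 11.3 to 14.6 CPM (-1.32 ± 0.13), and Mcm2, of the replication helicase, rose by 1.36 ± 0.26. Of 27 senescence genes and p53 targets, 11 rose and 5 fell. Cdkn1a (chr17:29090976-29100727, plus strand), the cell cycle inhibitor p21, was at 0.588, 1.54, 1.39 and 1.86 CPM in young and 40.4, 41.9, 38.0 and 64.0 CPM in aged libraries (5.07 ± 0.24, edgeR adjusted p = 3.57e-10), and it is also a daily output gene of liver. Gdf15, a stress hormone, was at 10.2, 0.769, 1.29 and 1.97 and at 24.03, 21.3, 26.1 and 46.4 CPM (3.09 ± 0.47), Phlda3, a p53 target, rose by 1.89 ± 0.25, and Gadd45g fell from 18.5 to 117 CPM to 6.52 to 13.6 CPM.

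Stress and zone genes showed no single direction. Of 23 heat shock genes, 9 rose and 3 fell, and 1 fell without aged replicate 1, 2 or 4. With library size alone 12 rose and 0 fell. Hspb1 was at 5.76, 5.38, 12.9 and 10.0 and at 18.4, 20.7, 25.2 and 27.9 CPM (1.42 ± 0.22). Hspa1b, the inducible HSP70, was at 6.47, 10.3, 108 and 21.6 and at 8.21, 18.4, 13.3 and 9.17 CPM, so that young replicate 3 stood apart. It was not called (-1.59 ± 0.61), but was called at -1.93 without young replicate 1 and at -1.89 without young replicate 2. Of 30 chaperones of the endoplasmic reticulum, 9 rose and 8 fell, with 5, 3 and 5 lower without young replicate 2, aged replicate 3 and aged replicate 4, and 1 lower with library size alone. Hspa5, BiP, was at 422 to 586 and 627 to 830 CPM (0.54 ± 0.11), and Syvn1, a ubiquitin ligase of that organelle, rose by 1.05 ± 0.13. Among immediate early genes Fos was at 0.549 to 3.999 and 1.01 to 1.69 CPM (not called) and Myc fell from 8.35 to 33.7 CPM to 2.42 to 5.24 CPM (-2.51 ± 0.33). Of 25 pericentral genes 8 rose and 6 fell, and of 25 periportal genes 7 rose and 11 fell (7 fell without young replicate 2), a balance that turned with library size alone, to 10 higher and 6 lower. Glul, glutamine synthetase of the pericentral rim, was at 857 to 1033 and 1016 to 1155 CPM (0.21 ± 0.08, not called, but called at 0.26 without young replicate 2). Cdh1, E-cadherin, which is periportal, was at 48.6, 59.96, 53.2 and 59.5 and at 1.17, 2.61, 2.40 and 2.51 CPM (-4.68 ± 0.17), and Hsd17b6, a periportal dehydrogenase, fell from 248 to 412 CPM to 47.3 to 99.1 CPM.

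Clock genes are set apart, because their levels follow the hour of the day, the hour of collection is not given, and it cannot be told apart from age. Clock proteins ARNTL and CLOCK or NPAS2 switch on the Per, Cry, Nr1d1 and Dbp genes, whose products in turn repress or relay the rhythm. The genes of each phase moved together. Of 13 genes of the Dbp phase, 12 fell and 0 rose, and the summed level of the list was 834 to 962 CPM in young and 240 to 292 CPM in aged libraries. Dbp (chr7:45705088-45710203, plus strand), an output factor, was at 181, 206, 179 and 173 CPM in young and 0.879, 1.52, 1.24 and 2.16 CPM in aged libraries (-6.99 ± 0.17, edgeR adjusted p = 1.84e-13). Usp2, a rhythmic deubiquitinase, was at 52.7, 74.9, 52.2 and 61.6 and at 2.49, 1.96, 3.11 and 2.51 CPM (-4.59 ± 0.16). Bhlhe41 (-4.41 ± 0.53) and Ciart (-3.85 ± 0.33), both repressors, also fell. No aged library reached the lowest young one in these 4 genes, which was a condition for naming them.

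Of 7 genes of the opposite, Arntl phase, 6 rose and 0 fell. Arntl was at 0.941, 0.549, 1.09 and 0.931 and at 27.0, 23.5, 21.1 and 23.1 CPM (4.73 ± 0.19, edgeR adjusted p = 6.25e-11). Npas2 was at 0.588, 0, 0.0991 and 0.103 and at 11.4, 12.1, 14.5 and 18.8 CPM (6.15 ± 0.39). Nfil3, which competes with Dbp for its sites, was at 12.8 to 13.8 and 44.2 to 53.3 CPM (1.88 ± 0.10), and Cry1, the repressor of latest phase, at 5.95 to 7.80 and 17.6 to 22.7 CPM (1.46 ± 0.14). All 4 lay higher in every aged library. Of 18 daily output genes, 11 fell and 5 rose. Upp2, a uridine phosphorylase, was at 649, 709, 680 and 586 and at 46.9, 76.7, 55.4 and 71.0 CPM (-3.39 ± 0.14), Coq10b fell by 2.46 ± 0.20 on the log2 scale, Tubb2a, a tubulin, rose from 20.9 to 38.1 CPM to 395 to 510 CPM (3.90 ± 0.16) and Tfrc, the transferrin receptor, by 1.76 ± 0.17. With members of the clock lists taken out of the other lists, 103 of 104 counts of members called stayed within 1.5 times. The exception was male-biased genes that rose, which went from 2 to 1. The clock lists hold only 13, 7 and 18 genes, so few members could be taken out. Whether the hour of collection bears on the other lists was not tested by this.

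**Figure D5:**
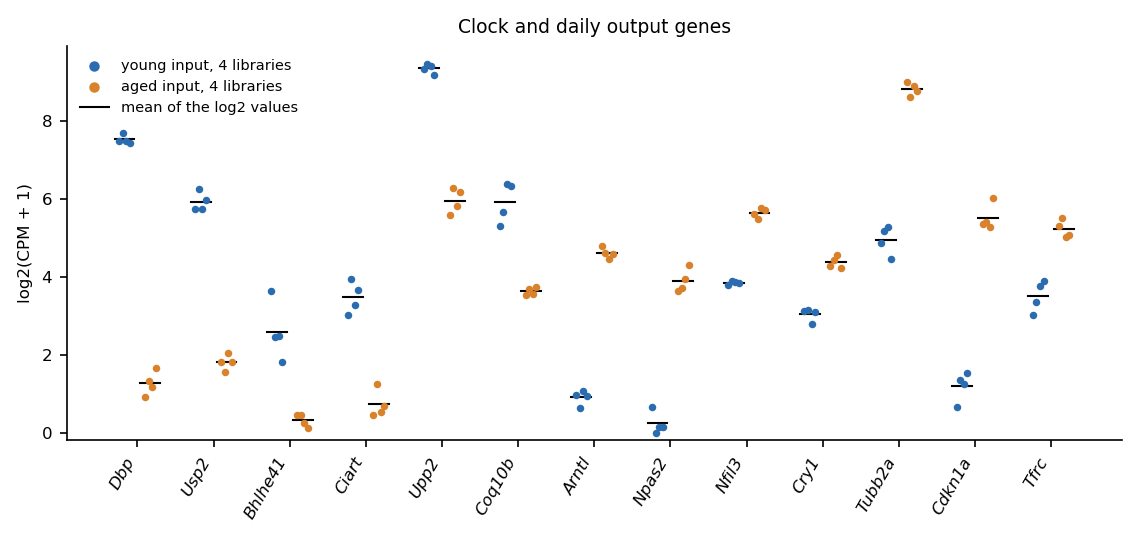
Levels of clock and daily output genes in each library, as log2(CPM + 1), with 4 young (blue) and 4 aged (orange) libraries per gene and a bar at the mean of the log2 values. Dbp, Usp2, Bhlhe41, Ciart, Upp2 and Coq10b lie lower, and Arntl, Npas2, Nfil3, Cry1, Tubb2a, Cdkn1a and Tfrc higher, in every aged library.

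The E-box CACGTG, the letters bound by ARNTL and its partners, stood in the promoter windows of 4 of 11 genes of the Dbp phase with a window (36.4%), against 8.09% of all genes with one. It also stood in 1 of 6 of the Arntl phase, Cry1. The D-box TTATGTAA, searched as well, stood in 1 of 11 genes of the Dbp phase and 0 of 6 of the Arntl phase, against 1.11% of all. CACCCCAC, the sterol element core, stood in 2 of 17 cholesterol genes and 1 of 21 genes of fatty acid and triglyceride synthesis, against 3.3%. GAANNTTC, the heat shock element, stood in 11 of 17 heat shock genes, against 9.04%. The stretches below show the E-box in capitals in Ciart and Bhlhe41, which fell, and Cry1, which rose, all before the start site. They lie at chr3:95882255-95882312, chr6:145865542-145865599 and chr10:85185083-85185140, all on the minus strand of GRCm38.p6, and the Ciart stretch holds a second E-box in lower case.
Ciart: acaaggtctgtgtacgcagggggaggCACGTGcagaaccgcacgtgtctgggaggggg
Bhlhe41: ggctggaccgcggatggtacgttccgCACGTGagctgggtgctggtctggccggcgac
Cry1: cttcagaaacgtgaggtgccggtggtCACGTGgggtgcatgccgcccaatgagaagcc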

How the data were processed

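The liver input libraries of the age experiment were analysed: poly(A) RNA-seq of total RNA, set aside after the biotin-labelling reaction. They came from 4 young and 4 aged mice, which the study describes as biological replicates. As deposited by the authors, the values are whole-number read counts per Ensembl gene. Per the labels and the study's methods, reads were trimmed, aligned to GRCm38 with STAR and counted with featureCounts as properly paired fragments. The strand setting is not given in the sources used here, so overlapping genes and near-identical copies are uncertain. All columns used matched 1 sample each.

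Genes with zeros in at most 25% of the 16 libraries of the table were tested, the rule of the study, which removes genes silent in 1 age. edgeR 4.0.16 (R 4.3.3) fitted the 8 input libraries with TMM scaling and its quasi-likelihood test, two-sided, with Benjamini-Hochberg adjustment over 15636 genes and a call at 0.05. The script was first tested on simulated data. Symbols and coordinates came from GENCODE M21, in which 181 of 55335 identifiers had no match, and promoters from RefSeq. Alternatives were DESeq2 1.42.0, its size factors, library size alone, other count filters, a fit of all 16 libraries, a replicate block, a test against a 2-fold change, leaving out each library, and lists without clock genes.

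Members and the 55 gene lists were chosen with earlier results of these data known. Named genes were the 10 largest called changes per direction (protein coding or lncRNA, mean of at least 50 counts in the higher group, no overlap), up to 4 per list by the same conditions, and anchor genes whatever their result. Others are marked where they appear, and some genes that the rule names are not reported here. The fold changes of Tff3 and Gm30692, with 3 counts or fewer in 1 age, are ratios of counts with exact 95% intervals. The limit of 3 counts and these intervals cover counting error only. Same-numbered young and aged libraries deviated together only weakly, with correlations of 0.0369 to 0.0751, against -0.132 to 0.0925 for libraries of unlike number. The numbers were not taken as pairs.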

Additional observations from a re-analysis of the deposited data

Results flagged for a closer look

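Among the 162 genes named, 324 groups of 4 libraries were examined for a library far from the other 3, and 23 (7.1%) had one, where chance alone gives about 1 in 20. Aged replicate 2 accounted for 6 of them: it was high for Hsd3b5 (6.08 CPM), Mup7 (268.8), Mup11 (13.5) and Oasl1 (84.1), and low for Cbr3 (3.19) and Fos (1.01). Young replicate 3 accounted for 5, being high for Fasn (449), Cd74 (109.6), Clec4f (188.5) and Hspa1b (108.0) and low for Cry1 (5.95). Young replicate 1 was high for Alb (101800), Gdf15 (10.2) and Serpina7 (65.75) and low for Selenbp2 (692.6). Young replicate 2 was high for Fth1 (1729), Orm3 (2.196) and Gm30692 (0.1098, a single count), and young replicate 4 for H19 (15.9). Among the other aged libraries, replicate 1 was high for Clec4f (144.6) and low for Cdh1 (1.17), replicate 3 was high for Fasn (2193) and replicate 4 for Cdkn1a (64.0). The genes called among these were called in every fit that left out 1 library, except H19.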

How the results depend on the processing

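Of 162 genes named, 160 kept their call and direction by DESeq2 (H19 and Pck1 lost theirs) and 162 with DESeq2 size factors, and by DESeq2 4580 genes were called, 4465 of them among the 4636. Scaling by library size alone gave 4034 higher and 1238 lower genes and kept 148 of the 162. It turned the sign of 3 uncalled genes, B2m (0.17), C3 (0.076) and Col3a1 (0.049), and with a mean of at least 10 counts B2m was at 0.0002397. Against a 2-fold change as the null, 445 genes passed, 261 higher and 184 lower, the same 261 and 184 at 2-fold or more. Leaving out 1 library at a time gave 3660 to 4249 called genes, 1860 to 2146 higher and 1800 to 2103 lower, and 756 to 891 higher and 476 to 529 lower by 2-fold, with the lowest total without aged replicate 3. The uncalled log2 fold changes that changed sign then ranged from -0.071 to 0.033 (B2m), -0.32 to 0.040 (Col3a1), -0.38 to 0.11 (Cyp7a1), -0.74 to 0.10 (Fos), -0.062 to 0.21 (Hamp) and -0.37 to 0.024 (Mt1). No called gene among the 162 changed sign. The cause of these shifts was not tested.

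With the replicate number as a block (replicate block), 4710 genes were called, 2411 higher and 2299 lower, and 5 of the 162 genes gained a call while none lost one. Same-numbered libraries correlated at 0.0469, 0.0601, 0.0369 and 0.0751, and young replicate 1 correlated best with aged replicate 4 (0.0925). Correlations this weak do not show whether libraries of the same number were handled together. Genes with few counts limit the rest: the 3-count floor was 0.227 to 0.328 CPM.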
